A study of Mus musculus with 4 samples.

Results

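The 10 genes examined here encode cell surface proteins used to recognise or sort mouse spermatogonia, and their methylation was read from 2 tables made from cultured germline stem (GS) cells. They were Itga6, Itgb1, Thy1, Cd9, Epcam, Cdh1, Mcam, Tspan8, Cxcr4 and Shisa6, found by symbol in the RefSeq annotation of mm10, and they are 10 of 49550 annotated genes on chromosomes 1 to 19 and X. The rule that selects them uses their names and no measured value, although the list was drawn up with earlier results of these data known. Each was described with 10 kb on either side of its annotated span. GS cells are spermatogonia that divide without end in culture. Here they came from the testes of wild-type mice of the GFP-transgenic line C57BL/6 Tg14(act-EGFP)OsbY01, called Green, on a DBA/2 background. Both groups shared this origin and a medium with GDNF and FGF2, and they differed in time in culture, some 5 months for 5M-GS and some 60 for 60M-GS. Bisulfite-treated DNA was sequenced across the genome from PBAT libraries, in which adaptors are added only after the bisulfite step. The comparison asks how the methylation of the 10 loci differed between short and long culture. Each age had 2 replicates, but they were pooled in 1 table per age, so every test below compares 2 pooled libraries and not 2 culture ages, and every interval covers counting error only.

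Integrin alpha-6 (Itga6) and integrin beta-1 (Itgb1) pair into a laminin receptor, through which spermatogonial stem cells hold on to the basement membrane of the seminiferous tubule. THY1 is a small protein held in the membrane by a lipid anchor, CD9 and TSPAN8 are tetraspanins that gather other membrane proteins into clusters, and EPCAM, E-cadherin (Cdh1) and MCAM join cells to their neighbours. CXCR4 is the receptor of the chemokine CXCL12, made by somatic cells of the testis, and SHISA6 is a single-pass membrane protein that marks a small fraction of undifferentiated spermatogonia. In mammalian DNA most CpGs are methylated, while CpG-rich promoters and many enhancers are not, and dense methylation of a promoter goes with silence of its gene. Transcripts were not measured in these tables, so a level below says nothing on whether a gene was expressed.

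In total, 468121185 calls covered 19371838 CpGs in 5M-GS, where the median CpG had 21, and 471693518 covered 19341319 in 60M-GS, where it had 22. Only the 17634196 CpGs with 5 calls or more in each were used. Over these CpGs the median was 23 calls in each table. The member loci were covered much like that, with median calls of 20 to 26 in 5M-GS and 21 to 28 in 60M-GS. Promoter windows of the germ cell genes Ddx4, Dazl, Mael and Sycp3 stood below 6% in both tables, the highest being Ddx4 at 5.77% and 4.90%. The paternally methylated stretch upstream of H19 was at 93.5% and 91.0%, and the promoter window of Peg3, methylated on the maternal copy only, was at 1.00% and 0.937%. The window of Snrpn, another maternally methylated gene, was at 41.5% in 5M-GS and at 55.6% in 60M-GS, but it holds only 6 measured CpGs, with 159 and 162 calls, at the outermost annotated start of a long gene, and need not cover the imprinted region. Windows of the somatic genes Amh, Col1a1, Sox9 and Vim were under 1% in both tables, and methylation alone cannot show whether somatic cells were present. For Amh, Col1a1 and Sox9 the window was set at the end of the gene richer in CpGs. Their strands were not checked, so these windows need not lie at the promoter.

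Promoters of these genes differ in CpG content, and 4 are shown as examples, from Tspan8, the CpG-poorest of the 6 members in the promoter table, to Cxcr4, a CpG-rich one. Those of Itgb1 and Mcam hold still more CpGs, 21 and 25. The lines give the 250 bases before the start in the RefSeq promoter table of build GRCm38.p6, 5′ to 3′ on the strand of the gene, with every CpG in capitals. Tspan8 lies on chromosome 10 from 115817034 to 115817283 (plus strand), Epcam on chromosome 17 from 87635729 to 87635978 (plus), Cd9 on chromosome 6 from 125494761 to 125495010 (minus) and Cxcr4 on chromosome 1 from 128592300 to 128592549 (minus).
Tspan8: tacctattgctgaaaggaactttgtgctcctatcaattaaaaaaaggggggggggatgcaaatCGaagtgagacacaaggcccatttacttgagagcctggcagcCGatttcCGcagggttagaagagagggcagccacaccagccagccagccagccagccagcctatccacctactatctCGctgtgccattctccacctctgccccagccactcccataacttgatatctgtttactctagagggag
Epcam: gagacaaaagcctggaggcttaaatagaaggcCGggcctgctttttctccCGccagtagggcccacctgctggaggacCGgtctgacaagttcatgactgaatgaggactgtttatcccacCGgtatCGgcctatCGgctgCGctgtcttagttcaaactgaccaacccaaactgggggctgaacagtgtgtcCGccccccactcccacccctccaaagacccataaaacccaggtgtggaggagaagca
Cd9: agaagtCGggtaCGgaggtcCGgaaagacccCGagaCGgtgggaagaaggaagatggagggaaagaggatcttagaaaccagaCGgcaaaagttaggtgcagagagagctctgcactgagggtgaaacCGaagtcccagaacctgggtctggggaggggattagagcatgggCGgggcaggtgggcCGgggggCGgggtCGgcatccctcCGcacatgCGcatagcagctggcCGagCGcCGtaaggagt
Cxcr4: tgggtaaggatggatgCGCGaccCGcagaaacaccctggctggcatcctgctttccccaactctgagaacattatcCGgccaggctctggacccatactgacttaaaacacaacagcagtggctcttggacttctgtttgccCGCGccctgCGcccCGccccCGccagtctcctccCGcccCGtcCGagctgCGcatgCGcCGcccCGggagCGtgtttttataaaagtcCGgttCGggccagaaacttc
The Tspan8 sequence holds 4 CpGs, against 8 in Epcam, 16 in Cd9 and 19 in Cxcr4. All 4 stretches were mostly unmethylated. Tspan8 was at 10.0% in 5M-GS and at 10.8% in 60M-GS on 40 and 37 calls, Epcam at 0.552% and 0.820%, Cd9 at 0.246% and 0.266%, and Cxcr4 at 0.538% and 0%. In Tspan8 the CpG at base 64, counted from the 5′ end of the line, had 1 methylated call of 6 in each table, and the one at base 183 had 2 of 20 and 0 of 12. In addition, 3 short motifs were searched on both strands of all 32851 promoters of the table. The GC box, GGGCGG, bound by the Sp1 family, was found in 32.7% of them, 2 times in Cd9, 1 time in Epcam and 3 times in Cxcr4, and not in Tspan8. TATAAA was found in 12.4% of all promoters and, on overlapping letters of both strands, in Cxcr4 alone of the 4. CCAAT, present in 33.8% of all, was in none of the 4. A match is a string of letters and does not show binding.

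A promoter window was defined from 1000 bp before to 500 bp after the annotated start, and a call of gained or lost needed both an adjusted p below 0.05 and 20 percentage points or more between the tables. Itga6, Itgb1, Thy1, Cd9, Cdh1, Mcam and Cxcr4, that is 7 of the 10 members, had windows under 5% in both tables. Itga6 was at 0.410% and 0.813% over 85 CpGs in 5M-GS and 60M-GS, in that order, and its partner Itgb1 at 1.87% and 2.56% over 112 CpGs. Thy1 was at 1.25% and 0.794%, and the tetraspanin gene Cd9 at 1.69% and 2.74%. The cadherin gene Cdh1 stood at 3.56% and 3.46%, Mcam at 0.432% and 0.334%, and the chemokine receptor gene Cxcr4 at 0.555% and 0.435%. Epcam was somewhat higher, at 10.3% and 9.52%, and its window reaches into methylated DNA. The CpGs from 1000 to 500 bp upstream were at 85.3% and 78.4%, while the first 500 bp of the gene were at 0.628% and 0.196%. For 8 of the 10 windows, all but Tspan8 and Shisa6, the 95% interval of the difference lay within 5 points of 0.

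Shisa6 and Tspan8 differed most between the tables. The Shisa6 window, on chromosome 11 from 66527484 to 66528984, was methylated at 43.2% (95% interval 39.1 to 47.3) of 563 calls in 5M-GS and 72.6% (68.8 to 76.1) of 577 calls in 60M-GS. This gain of 29.5 points (23.9 to 34.8) was called (Benjamini-Hochberg adjusted p = 1.51e-22 by a two-sided Fisher's exact test), and it was the 1 window called among the 10. Of all 29544 windows tested, 4.42% were gained and 0.474% lost, and 1 window of 10 is not read here as a property of the members. Tspan8 was at 34.2% (30.2 to 38.5) in 5M-GS and at 23.1% (19.7 to 26.8) in 60M-GS. Its difference of -11.1 points (-16.6 to -5.61) had an adjusted p of 6.74e-04 by the same exact test but missed the limit of 20 points. The Tspan8 difference sat mainly after the start, where the first 500 bp were at 62.7% and 45.2%. The start used for Tspan8, position 115817284, lies inside the annotated gene, whose span begins at 115816817. From 1000 to 500 bp before the start the levels were 8.65% and 2.55%. With the calls of a region divided by its number of CpGs, a stricter count in which the mean depth takes the place of the sum, the adjusted p of the Shisa6 window became 1.00.

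**Figure D1:**
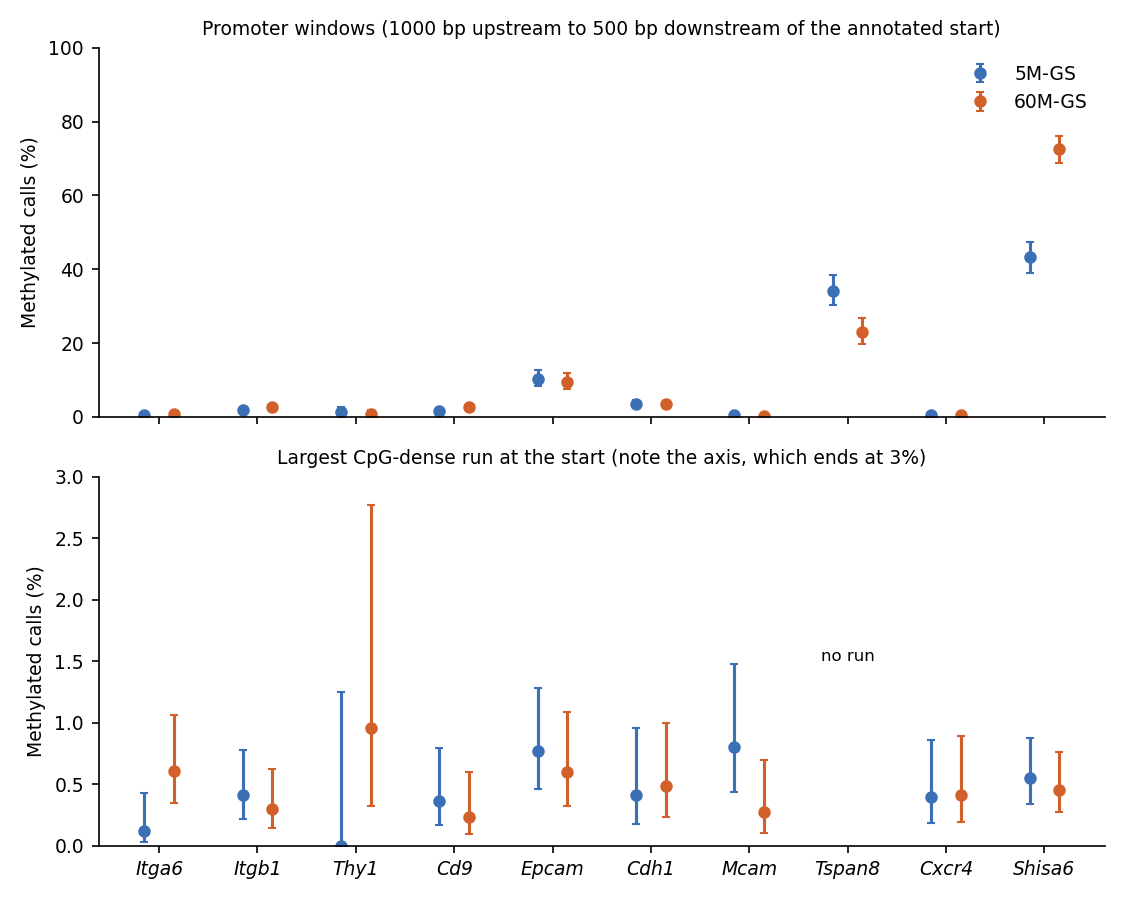
Methylated calls in percent (vertical axis) with 95% Wilson intervals for the promoter window of each of the 10 members (upper panel) and for the largest CpG-dense run at the start of 9 of them (lower panel, on an axis that ends at 3%), in 5M-GS (blue) and 60M-GS (orange). Of the windows, Shisa6 went from 43.2% to 72.6% and Tspan8 from 34.2% to 23.1%, and the dense runs were below 1% in both tables.

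The Shisa6 gain did not reach its CpG-rich core. The window sits at the outermost annotated start, position 66527984, where only 19 CpGs were measured, whereas the run of densely packed CpGs begins 1015 bp inside the gene. That run, on chromosome 11 from 66525155 to 66526969, holds 231 CpGs, of which 204 were measured, and it was at 0.547% (0.342 to 0.875) in 5M-GS and at 0.455% (0.271 to 0.762) in 60M-GS. In steps of 250 bp the last one before the annotated start went from 52.2% to 85.1%, and the first one after it from 29.2% to 75.3%. The next 2 steps went from 6.76% to 32.8% and from 6.96% to 24.8%, and the step just before the run was at 0% and 1.52%. On the far side of the run, the step from 3500 to 3750 bp into the gene was at 61.0% and 84.4%, with a difference of 23.3 points (10.1 to 36.0). The steps nearer the run were at 10.5% and 16.7% (difference -6.92 to 19.5 points) and at 41.7% and 61.4% (-0.668 to 37.9), and the intervals of both differences include 0. Beyond 500 bp upstream both tables were highly methylated, at 83.0% and 78.6% from 750 to 500 bp before the start. In both tables the run was thus unmethylated, and on the side of the annotated start methylated DNA reached closer to it in 60M-GS. With the window placed at the edge of the run instead, a choice made after these values were seen, 5M-GS was at 6.30% and 60M-GS at 16.8%, which is 10.5 points apart (8.08 to 12.8) and below the limit for a call.

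**Figure D2:**
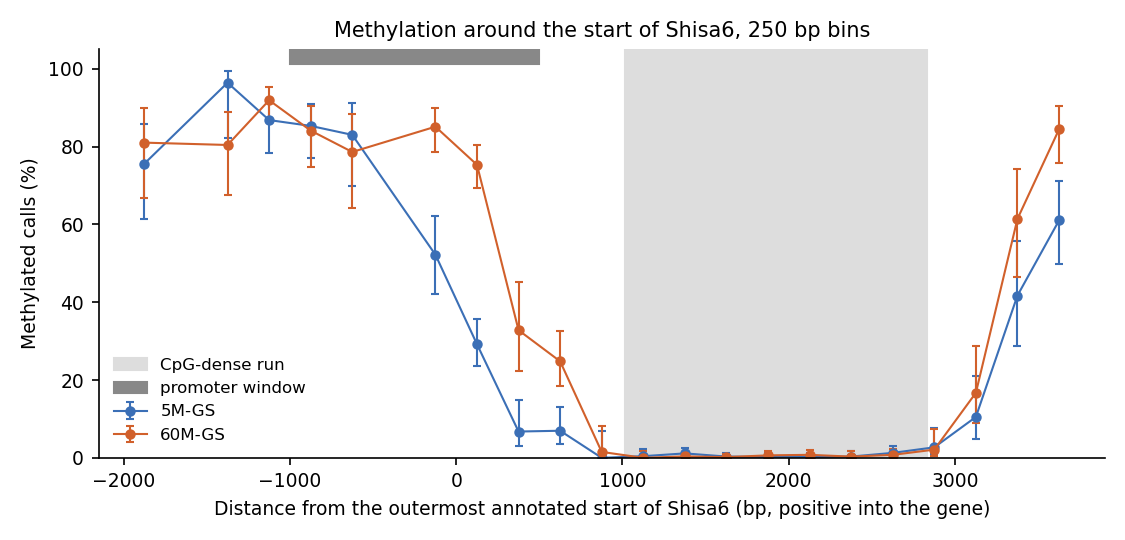
Methylated calls in percent (vertical axis) with 95% Wilson intervals in steps of 250 bp around the outermost annotated start of Shisa6 (horizontal axis, distance in bp, positive into the gene), in 5M-GS (blue) and 60M-GS (orange). The tables part between 250 bp before and 750 bp after the start, for example at 29.2% and 75.3% in the first step, and meet near 0 in the shaded CpG-dense run.

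Dense runs, in which 20 or more CpGs follow each other no further than 50 bp apart over 200 bp or more, were compared at all members. In all, 12 such runs lie in the 10 loci, at least 1 at or near the start of every member except Tspan8, and 11 of the 12 were under 1% in both tables. Of the 12, 0 were called, against 5.13% gained and 0.120% lost among 23248 runs tested. A single run had an unadjusted p under 0.05, the first run of Itga6 at 0.118% and 0.610% (Fisher's exact test, p = 0.0162, and 0.120 after adjustment). The run above 1% lies inside Epcam, on chromosome 17 from 87640237 to 87640621. Its 31 CpGs were at 94.9% (93.1 to 96.2) in 5M-GS and at 93.7% (92.0 to 95.1) in 60M-GS, so it was highly methylated at both times although it meets the same density rule as the runs at starts. At the Mcam locus a second unmethylated run, 4271 to 4668 bp upstream of the Mcam start, was at 0% and 0.462%. It lies in the span of the annotated gene Gm10687, which has a listed start within the dense run at the Mcam start.

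Whole loci moved little. Counted over the gene and both flanks, the levels ran from 44.3% (Mcam) to 78.0% (Itga6) in 5M-GS, with a median of 68.3%, and from 42.2% (Mcam) to 78.5% (Shisa6) in 60M-GS, with a median of 68.0%. In 60M-GS 3 loci were higher and 7 lower, by -2.68 points in Thy1 to 1.32 points in Shisa6. The loci held 655 tiles of 1 kb with at least 4 measured CpGs, and in 600 of them the tables differed by less than 10 points. The median difference was -0.442 points, beside -0.452 points over all 1689849 tiles. Of the member tiles 10 were gained and 10 lost, 1.53% each. Over all tiles 3.48% were gained and 0.475% lost, so among the members gained tiles were below, and lost tiles above, their background, on small counts. Itgb1 and Epcam had no called tile, and 12 of the 20 lay in Shisa6, Cdh1 and Cd9.

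**Figure D3:**
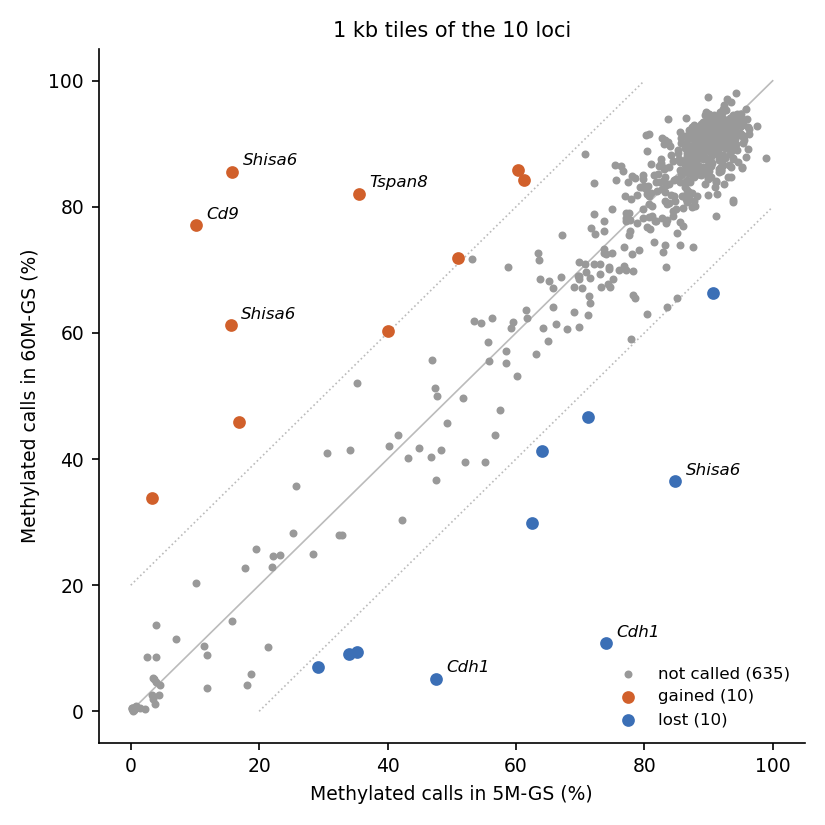
Level of the 655 tested 1 kb tiles of the 10 member loci in 5M-GS (horizontal axis, percent of methylated calls) and 60M-GS (vertical axis, percent), with the 10 gained tiles in orange, the 10 lost tiles in blue and dotted lines at 20 points from the diagonal. Most tiles lie near the diagonal, and 600 of 655 are within 10 points of it.

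Low stretches were searched for directly. A low stretch was at least 4 consecutive measured CpGs whose running level over 3 CpGs was under 30% in 1 of the tables, and as the level defines it no test was made. Where only 1 table was low, that table set the stretch, so the levels of its single CpGs are given below as description only. There were 37 in the 10 loci, 10 at promoter windows, 14 inside genes and 13 in flanks. At the promoter windows 9 of the 10 differed by at most 1.75 points, and that of Tspan8 was at 15.9% and 7.49%. Of the 27 elsewhere, 4 were higher by at least 20 points in 60M-GS, 4 were lower by as much, and 19 moved less. Over the genome 22.8% of 71695 low stretches were higher by at least 20 points and 5.09% lower, against 10.8% each among the 37.

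**Figure D4:**
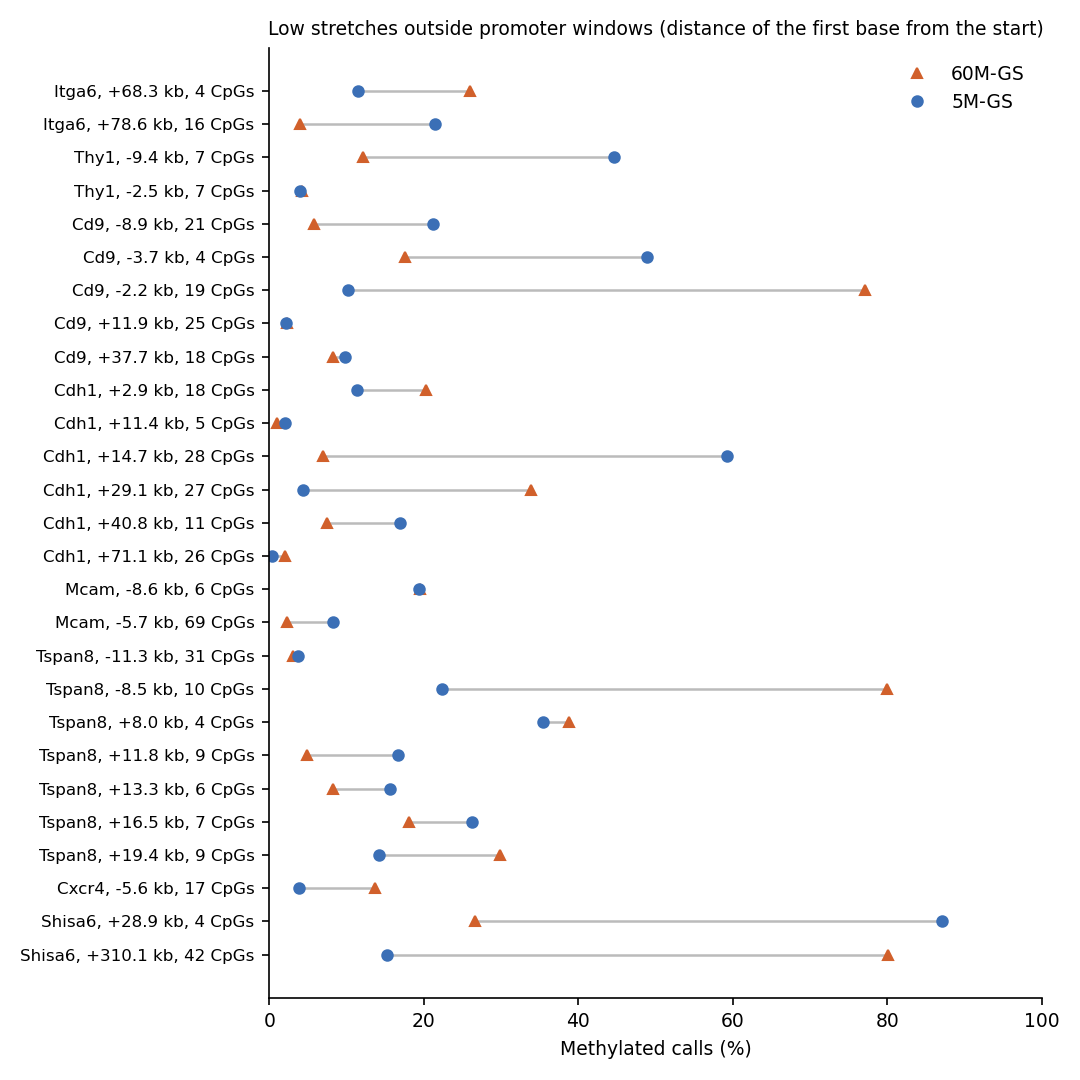
Level in percent of methylated calls (horizontal axis) of the 27 low stretches outside promoter windows, 1 per line with its member, the distance of its first base from the start and its number of CpGs, in 5M-GS (blue circles) and 60M-GS (orange triangles), joined by a grey bar. Long bars mark the 8 stretches that lie at least 20 points apart, in Thy1, Cd9, Cdh1, Tspan8 and Shisa6, and the other 19 are closer.

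The gain over the most CpGs was far from the promoter window of Shisa6, near the 3′ end of that gene. On chromosome 11 from 66216660 to 66217909, 4935 bp inside the end of the annotated gene, 42 CpGs were at 15.2% of 1128 calls in 5M-GS and 80.1% of 1011 calls in 60M-GS. In 5M-GS the single CpGs ran from 0% through a median of 15.6% to 34.3%, and in 60M-GS from 0% through 84.7% to 100%. All but 1 of the 42 were higher there by 20 points or more. The tile from 66217001 rose from 15.8% to 85.6% (adjusted p = 2.94e-208 by Fisher's exact test), and the tile before it, from 66216001, rose from 15.6% to 61.2%. The stretch also lies in the span of Gm12296, an annotated gene that overlaps this end of Shisa6, so it cannot be assigned to one of them. Where it lies relative to the start of Gm12296 was not examined. It is too loosely packed to count as a dense run under the main definition. With gaps of up to 100 bp allowed, a run from 66217395 to 66218265 went from 23.2% to 90.3% and was called. Of all 235 tiles of Shisa6 and its flanks, these included, 220 differed by less than 10 points.

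A loss was seen in the same gene, 28892 to 28921 bp from its start. There 4 CpGs within 30 bp, from 66499063 to 66499092, were at 87.1% of 171 calls in 5M-GS and 26.6% of 237 calls in 60M-GS. Over the 4 CpGs the medians were 88.1% and 26.5%, and each of them was lower in 60M-GS by 20 points or more. They lie close enough to share reads, so their calls are far from independent. Their tile, from 66499001, fell from 84.8% to 36.5% over 12 CpGs (adjusted p = 1.26e-42 by Fisher's exact test, and 0.0231 with divided calls). The last called Shisa6 tiles flank the CpG-dense run, 66524001 at 40.1% and 60.3% and 66527001 at 16.8% and 45.9%.

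Cd9 had a gain of similar size just upstream. From 125496231 to 125497000 on chromosome 6, 1471 to 2240 bp before the Cd9 start, 19 CpGs were at 10.2% of 481 calls in 5M-GS and 77.1% of 541 calls in 60M-GS. In 5M-GS they ran from 0% through a median of 6.67% to 41.2%, and in 60M-GS from 40.0% through 75.8% to 87.5%. Each of the 19 was higher there by 20 points or more. The tile from 125496001 rose by 66.9 points (62.1 to 71.0, adjusted p = 2.50e-109 by Fisher's exact test, and 0.00111 with divided calls). The site lies within the lncRNA gene Gm26728. Between it and the start, the last 500 bp before the start was at 1.08% and 1.90%, so the Cd9 promoter itself was unmethylated in both tables. Upstream of it 2 more sites were lower in 60M-GS. The 4 CpGs from 125498209 to 125498415 were at 48.9% and 17.6% on 45 and 51 calls, and the tile from 125503001 fell from 34.0% to 9.16%. Inside Cd9 a low stretch of 25 CpGs, from 125480808 to 125482833, stood at 2.23% and 2.29%. It holds the start of the annotated gene Gm28809 and was as low as the promoter in both tables.

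Cdh1 had differences in both directions within its body. From 106618076 to 106620016 on chromosome 8, 14726 to 16666 bp from the start, 28 CpGs were at 59.3% of 491 calls in 5M-GS and 6.99% of 615 calls in 60M-GS. All 28 were lower in 60M-GS, 24 of them by at least 20 points, with medians over CpGs of 60.7% and 6.83%. The CpGs to either side were methylated in both tables, at 86.0% and 74.4% before it and 85.4% and 69.9% after it. The tile from 106618001 fell from 205 methylated calls of 277 to 38 of 352, or 10.8% (adjusted p = 3.02e-60 by Fisher's exact test, and 0.00940 with divided calls), and the next, from 106619001, fell from 47.5% to 5.20%. Further into the gene, 29087 to 30707 bp from the start and from 106632437 to 106634057, the order was reversed. There 27 CpGs were at 4.35% in 5M-GS and at 33.9% in 60M-GS, and 26 of them were higher in 60M-GS. The tiles from 106633001 and 106634001 rose from 3.25% to 33.8% and from 51.0% to 71.9%, and the tile from 106608001 fell from 90.7% to 66.3%. Other Cdh1 stretches were low in both tables. They include 5 CpGs from 106614729 at 2.08% and 1.06%, and 26 CpGs downstream of the gene from 106674449 at 0.342% and 2.10%. A stretch of 18 CpGs from 106606200 was at 11.3% and 20.3%, and another, of 11 CpGs from 106644146, at 16.9% and 7.49%.

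**Figure D5:**
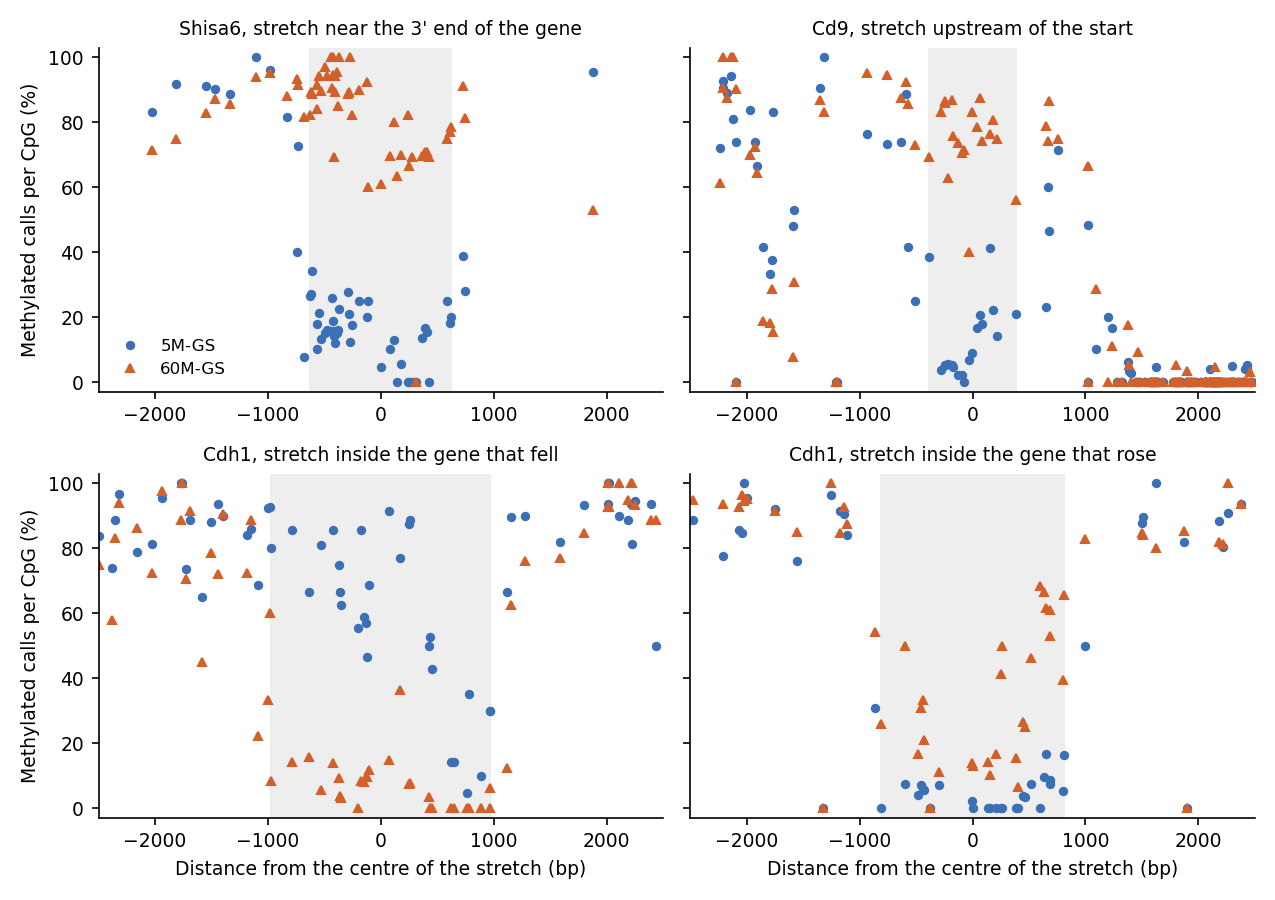
Level of each measured CpG (vertical axis, percent of methylated calls) by its distance in bp from the centre of the stretch (horizontal axis, positive in the direction of transcription of the gene) at 4 sites in Shisa6, Cd9 and Cdh1, in 5M-GS (blue circles) and 60M-GS (orange triangles), with the stretch shaded. The colours part within the stretches, where all 19 CpGs upstream of Cd9 are higher in 60M-GS and all 28 of the first Cdh1 site are lower.

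Tspan8, whose start lacks a dense run, gained methylation 8139 to 8545 bp upstream. The 10 CpGs from 115808739 to 115809145 on chromosome 10 were at 22.4% of 152 calls in 5M-GS and higher by 57.6 points (47.4 to 65.8) in 60M-GS. They ran from 8.33% to 31.8% in 5M-GS, whose low level defined the stretch, and from 42.9% to 87.5% in 60M-GS. The tiles from 115808001 and 115809001 rose from 35.6% to 82.1% and from 61.2% to 84.2%. Further upstream, a stretch of 31 CpGs from 115806021 to 115807633, which begins outside the 10 kb flank, was at 3.77% and 3.07%, a difference of -0.706 points (-2.61 to 1.12), not far from the stretch that gained. Inside Tspan8 5 smaller stretches held 4 to 9 CpGs each and differed by less than 20 points, between -11.9 and 15.8 points.

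The other called tiles lay in or near Itga6, Thy1, Mcam and Cxcr4. In Itga6 the tile from 71797001 rose from 60.4% to 85.8%, and downstream of the gene the tiles from 71865001 and 71867001 fell from 64.1% to 41.3% and from 29.1% to 6.99%. The listed start nearest to these downstream tiles is that of another gene, Pdk1, 7224 and 5224 bp away. Both downstream tiles overlap 1 stretch of 16 CpGs, from 71865529 to 71867946, which was at 21.5% and 4.04%. The Thy1 tile from 44034001, 8384 to 9383 bp upstream, fell from 62.5% to 29.8%. It covers 7 CpGs from 44034013 to 44034392 at 44.6% and 12.2%. The tile also holds a listed start of the annotated gene Gm39323, 267 bp from those CpGs. Upstream of Mcam the tile from 44128001 fell from 71.3% to 46.7%, at the edge of a stretch of 69 CpGs that was at 8.28% and 2.26%. The tile and the stretch both overlap Gm10687. Upstream of Cxcr4, 9702 to 10701 bp before the start and so mostly beyond the 10 kb flank, the tile from 128602001 fell from 35.2% to 9.38%. All 20 called tiles had an adjusted p under 0.05 by Fisher's exact test, and 4 still passed with divided calls, namely those of Cd9 from 125496001, Cdh1 from 106618001 and Shisa6 from 66217001 and 66499001.

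Single CpGs, tested where each table had 10 calls or more, placed the differences more finely. Of 6540 tested in the loci, 77 were gained (1.18%) and 35 lost (0.535%), against 2.02% and 0.215% of all 15332174. Shisa6 had 47 of the gained CpGs, Cd9 had 14 and Cdh1 had 9. Cdh1 had 17 of the lost CpGs and Shisa6 had 6. In tiles at 80% or more in both tables, 15 of 4180 CpGs had no methylated call in either table despite at least 10 calls in each. Where the DBA/2 genome differs from the reference at a CpG, such a reading can arise in methylated DNA, and whether it did so here was not tested.

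Relatives of the members were examined through lists of 95 genes, the other integrins, tetraspanins, cadherins and catenins, adhesion proteins, genes of the Cxcr4 axis, Shisa genes and other surface proteins of spermatogonia. Windows of 88 could be tested, and 2 were gained and 0 lost by Fisher's exact test. Those 2.27% gained stand beside 3.44% of the 18960 protein-coding windows. The median difference was 0.170 points in the lists and 0.199 points in all protein-coding windows. One gained window was that of Ctnnd1, encoding p120-catenin, which binds E-cadherin at the membrane and keeps it there. It rose from 23.0% to 85.7% (adjusted p = 1.44e-254 by Fisher's exact test). The other was that of the tetraspanin gene Cd37, which rose from 35.4% to 73.9% (adjusted p = 2.44e-53 by Fisher's exact test). No window of the 17 integrin genes, 9 Shisa genes or 14 other spermatogonial surface genes tested was called. List genes without an entry in the promoter table, among them Csf1r and Cdh13, had their window at the end richer in CpGs. Their strands were not checked, so some of these windows may not lie at the promoter. The windows of Itga9, Lifr, Tspan12 and Cd63, among others, were set at a listed start that lies well inside the annotated gene.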

How the data were processed

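PBAT libraries of 5M-GS and 60M-GS DNA were sequenced, per the labels' protocols. Alignment used Bismark 0.10.0 on mm10, per the submitters' processing notes. For every CpG the deposited tables hold a count of methylated calls, a count of unmethylated calls and the percent methylated, which the authors did not normalize further. Whether reads were filtered or deduplicated, and how strands were merged, is not given in the sources used here. The percent column was used to check the counts and for nothing else. Each table pools its 2 replicates.

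A level is the percent of methylated among all calls on the CpGs used. Every kind of region was tested genome-wide where 4 or more usable CpGs fell in it, by a two-sided Fisher's exact test on summed calls, and p-values were adjusted (Benjamini-Hochberg) over that kind. Intervals are 95% Wilson intervals, combined by Newcombe's method for differences. Neighbouring calls can share a read, so p-values are too small, and 1 alternative divided a region's calls by its number of CpGs. The start came from the RefSeq promoter table for 6 members and, for Itga6, Thy1, Cdh1 and Shisa6, from the CpG-dense end of the annotated gene, which fits the known strand. Other genes without a usable entry in that table were treated alike, and their strands were not checked. Exons and introns were not analysed here. All members were named, with every called tile and run, every low stretch that moved by 20 points or more, and the called list genes. Other stretches and the steps around starts were chosen after their values were seen. The members and lists were chosen with earlier results of these data known. The tests were tested on simulated data. Python 3.11.15, scipy 1.17.1, numpy 2.4.6 and pandas 2.3.3 were used.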

Additional observations from a re-analysis of the deposited data

How the results depend on the processing

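No paired analysis was possible because the deposited columns carry no replicates, and for the same reason no replicate could be left out. With calls divided by CpGs, 2 member tiles were gained and 2 lost, 0 member promoter windows were gained, and 1 window of the related genes was gained; 16 of the 20 called tiles no longer passed. With a minimum difference of 30 points, 5 tiles were gained and 4 lost, and 0 promoter windows were gained; with 10 points, 17 tiles were gained and 24 lost, and 1 promoter window, that of Tspan8, was lost. Without flanks 7 tiles were gained and 4 lost, and with flanks of 25 kb 13 were gained and 17 lost. Allowing gaps of 100 bp gave 1 gained dense run, in Shisa6, and runs of at least 10 CpGs gave 2, in Cd9 and Shisa6, at the sites described above. With at least 50 points, 65 single CpGs were gained and 20 lost. With a limit of 20%, 6 low stretches were higher by 20 points and 2 lower, and with at least 8 CpGs 4 were higher and 1 lower. The balance of gained and lost thus varied with the setting. Windows from 2000 bp upstream to 1000 bp downstream gave 1 gained window among the related genes. No result tried reversed its direction where it had been called. Whole-locus differences of Itga6, Thy1, Cd9 and Tspan8 moved to 0.158, 0.517, -0.453 and -1.45 points without flanks. Depth allows differences of a few points at promoters to be seen, but the spread between replicates is unknown.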
